A study of Sus scrofa with 8 samples.

Results

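The NF-kB system was followed at 10 genes through the pig retina after intravitreal (IVT) AAV injection: the Rel subunit genes NFKB1, NFKB2 and RELB, the IkB protein genes NFKBIA, NFKBIE and BCL3, the ubiquitin-editing regulators TNFAIP3 and BIRC3, and the target genes TNFAIP2 and SOD2. They were chosen by name, with earlier results of these data known, and all 10 were found among the 35683 genes of the count matrices. The animals were female Yucatan minipigs of 3 to 5 months that had received Vitrase, a hyaluronidase, in both vitreous cavities 2 weeks earlier and systemic methylprednisolone, a glucocorticoid, 2 days before injection and weekly after it. Both eyes were injected with AAV2.7m8/CAG-GFP, a capsid variant of AAV2 that carries GFP under the ubiquitous CAG promoter, at 5e11 vector genomes per eye, or with vehicle. Single nuclei were sequenced from both eyes of 1 AAV-injected animal (7221) and 1 vehicle-injected animal (7222) on day 15 (week 2), and on day 24 or 28 (week 4) from 1 eye each, the left, of 7248 and 7249, which had received AAV, and of 7250 and 7251, which had received vehicle. The steroid, the enzyme and the injection itself were thus shared by every group, and no untreated retina was part of the comparison. The labels give each of the 4 groups its own batch, so that batch and group cannot be told apart.

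NF-kB transcription factors are dimers of Rel proteins that IkB proteins hold in the cytoplasm of a resting cell. Cytokines, pattern recognition receptors and DNA damage activate IkB kinases, the inhibitor is degraded, and the dimer enters the nucleus. Among its targets are the genes of its own inhibitors, which is why NFKBIA and TNFAIP3 are widely used as readouts of the pathway, and NFKB2 and RELB, which carry the slower non-canonical arm that is driven by stabilization of the kinase NIK. In the retina, Müller glia, astrocytes and microglia are the cells in which the pathway is best known.

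Promoters of 9 members were read, and 3 of the 9 held the kappa B consensus, the 10-base motif that NF-kB dimers bind, within the 250 bases before the RefSeq gene start in Sscrofa11.1, searched on both strands. The same motif was found in 1206 of 20664 promoters of protein-coding genes (5.84%). These 3 promoters are printed as the 3 that held a match. The stretches are chr6:51444420-51444669 for RELB (plus strand, gene at 51444670 to 51480350), chr7:64507869-64508118 for NFKBIA (plus strand, gene at 64508119 to 64510754) and chr6:51255783-51256032 for BCL3 (plus strand, gene at 51256033 to 51264923). Each lies upstream of the annotated gene, is written 5′ to 3′ on the strand of the gene, and has the matches in capitals.
RELB: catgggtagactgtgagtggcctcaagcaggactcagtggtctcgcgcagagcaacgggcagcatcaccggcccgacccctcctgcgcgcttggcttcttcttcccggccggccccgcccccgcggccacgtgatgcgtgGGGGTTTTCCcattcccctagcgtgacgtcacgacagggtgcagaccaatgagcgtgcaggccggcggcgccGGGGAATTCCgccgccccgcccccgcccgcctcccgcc
NFKBIA: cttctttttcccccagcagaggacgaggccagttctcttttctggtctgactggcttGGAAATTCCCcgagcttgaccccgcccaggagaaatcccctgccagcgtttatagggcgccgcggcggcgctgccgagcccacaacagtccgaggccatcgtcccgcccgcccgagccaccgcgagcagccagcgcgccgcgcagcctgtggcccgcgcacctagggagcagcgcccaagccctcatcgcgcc
BCL3: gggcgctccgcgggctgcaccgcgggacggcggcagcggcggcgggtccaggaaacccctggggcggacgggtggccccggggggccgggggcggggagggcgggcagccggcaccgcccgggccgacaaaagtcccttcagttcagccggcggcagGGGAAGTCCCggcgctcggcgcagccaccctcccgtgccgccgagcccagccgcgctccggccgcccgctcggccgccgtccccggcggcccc
RELB held 2 matches, which began 110 and 38 bases before the gene start. BCL3 held 1 match at 93 bases and NFKBIA 1 at 193 bases. No match was found in the windows of the other 6 that were read, which says only that these letters are not in these windows. An annotated start may not be the start of transcription, and a window would then not be the promoter. The NFKB1 window had 31.6% G or C, against 58.8% to 83.2% in the other windows read.

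Of 388491 deposited barcodes, 350537 passed the filter on mitochondrial share. Each retina gave 121544835 to 173614051 unique molecular identifiers (UMIs), which count each captured transcript once. Nuclei were assigned to classes by markers that left out all 10 members, and 14.6% of nuclei stayed without a class. These held from 14.5% (NFKB2) to 24.5% (TNFAIP3) of a member's UMIs, with RELB at 22.5% and TNFAIP2 at 20.5%. Class levels leave these UMIs out. Levels are given in CPM, a gene's count scaled to a total of 1e6 UMIs, of the class in that retina. A sum over a class is a mixture of its nuclei, so that more expressing nuclei and more RNA per nucleus cannot be told apart in it. At week 4 the sums of 2 against 2 animals were compared with edgeR's quasi-likelihood test, with Benjamini-Hochberg adjustment over all genes of the class and a threshold of 0.05. At week 2 each arm was 1 animal, so that ratios are given with 95% intervals that cover counting error only, and no test was made. T or NK nuclei numbered 1140 and 867 in the AAV-injected retinas of week 4 and 1 and 0 in the vehicle-injected retinas, and B or plasma nuclei 343 and 412 against 1 and 0, so that both classes give levels without a comparison.

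At week 4 the members that passed the test were all higher in AAV-injected retinas. Of 90 pairs of member and class, 73 had counts for a test, 65 of the 73 had a fold change above 0 on the log2 scale, and 25 passed the threshold. Of all genes tested, 1.47% in cones to 12.1% in Müller glia rose, with the other classes between. The median fold change of all genes was 0.175 in myeloid nuclei and ran from -0.0122 to 0.0287 in the other classes. Müller glia held 9 of the 25, astrocytes and myeloid nuclei 5 each, rods 4 and bipolar nuclei 2. No member passed in cones, amacrine, horizontal or ganglion nuclei, and DESeq2 called 0 there as well. The looser gate called 1 in amacrine and 1 in horizontal nuclei, and leaving out 1 retina called 1 in cones in 1 of 4 cases and 1 in horizontal nuclei in 3 of 4. An unadjusted p under 0.05 in edgeR was found for 6 of 10 tested members in cones, beside 3650 of all 18815 genes, and for 3 of 9 in amacrine nuclei, beside 3295 of 19117. It was found for 1 of 2 in horizontal nuclei, beside 1896 of 10304, and for 2 of 5 in ganglion nuclei, beside 2161 of 13568, of which RELB was lower in the AAV-injected retinas. TNFAIP3 passed in 5 classes, BIRC3 in 4, RELB and BCL3 in 3 each, NFKB2, NFKBIE, TNFAIP2 and SOD2 in 2 each, and NFKB1 and NFKBIA in 1 each. Over all nuclei of a retina, 7 of the 10 members passed, beside 6.71% of all genes. These sums gained the T or NK and B or plasma nuclei given above and myeloid nuclei, which numbered 1435 and 892 against 64 and 68, so that the makeup of the retina and levels within nuclei cannot be told apart in them.

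**Figure D1:**
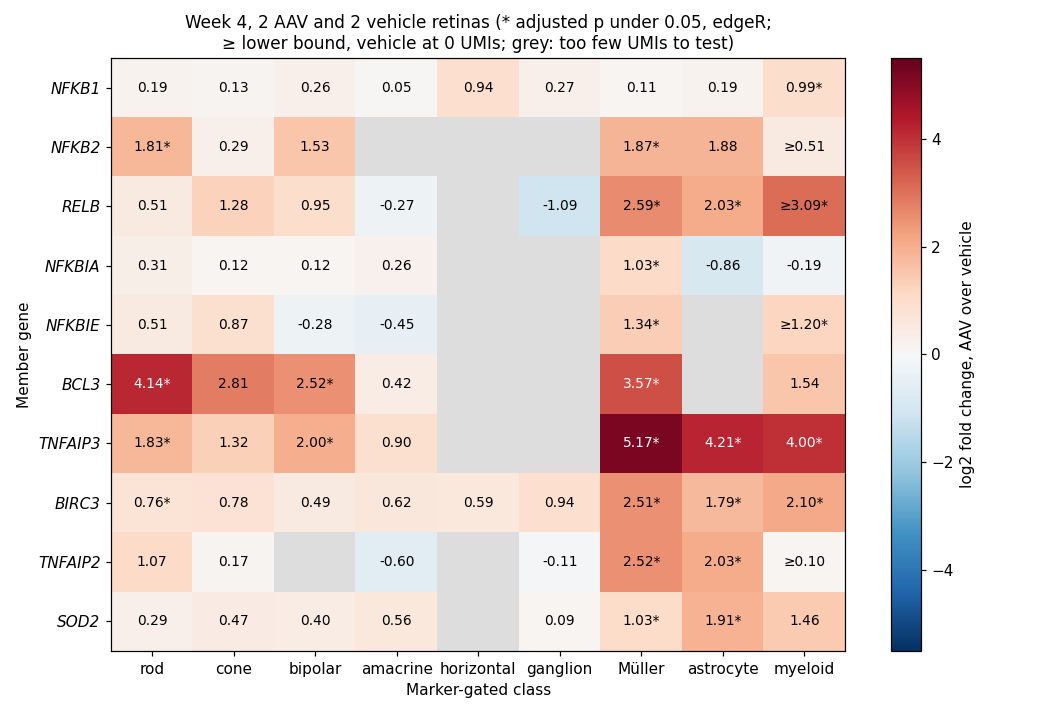
Heat map of the log2 fold change of each member (rows) in each class (columns) between AAV-injected and vehicle-injected retinas at week 4 (edgeR, 2 animals per arm), with stars for an adjusted p under 0.05, lower bounds where vehicle was at 0 UMIs and grey where counts were too few. All 25 stars stand at values above 0, and 9 of them are in the Müller column.

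In Müller glia, the radial glia that span the retina, 9 of 10 members rose at week 4, beside 12.1% of all 17885 genes tested that rose and 12.5% that fell. The median fold change of the 10 members was 2.19 on the log2 scale, and that of all genes -0.0044. Müller nuclei numbered 1803 and 696 in the AAV-injected retinas and 4672 and 5033 in the vehicle-injected retinas, with a median of 5386 and 5474.5 UMIs per nucleus against 2205 and 1984. The summed Müller markers were at 3100 and 3119 CPM against 4252 and 4391 CPM, and the part that this difference in nuclei and depth had in the results was not tested beyond the thinning described with the processing alternatives. Myeloid markers in the same sums were at 40.1 and 42.9 CPM against 40.7 and 35.2 CPM, with 2 and 2 against 4 and 2 of 15 markers at 0. T or NK markers were at 62.5 and 32.3 CPM against 43.7 and 29.2 CPM, and B or plasma markers at 81.9 and 104 CPM against 51.9 and 40.6 CPM.

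NFKB1 encodes p105, which is processed to the p50 subunit of the canonical dimer. In Müller glia it was at 216 and 186 CPM in the AAV-injected retinas of week 4 and at 189 and 184 CPM in the vehicle-injected retinas, and the groups overlapped. The fold change was 0.11 ± 0.12 (log2, SE; edgeR adjusted p = 0.545). At week 2 it was at 210 and 207 CPM in the 2 eyes of animal 7221 and at 152 and 148 CPM in those of 7222, a ratio of 1.39 (95% interval 1.33 to 1.44). NFKB1 was the 1 member that did not pass in Müller glia at week 4.

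RELB and NFKB2 encode the partners of the non-canonical dimer, RelB and p100, the precursor of p52. RELB was at 38.2 and 27.7 CPM in the AAV-injected retinas at week 4 (33.0 ± 7.48, mean ± SD, n = 2) and at 4.02 and 7.04 CPM in the vehicle-injected retinas (5.53 ± 2.14, n = 2). It rose by 2.59 ± 0.28 on the log2 scale (edgeR adjusted p = 0.000699), and no AAV-injected retina overlapped a vehicle-injected one. The difference was already present at week 2, with 27.4 and 28.01 CPM against 5.27 and 4.63 CPM, a ratio of 5.58 (4.68 to 6.68). NFKB2 was a gene of low counts, with 90 and 20 UMIs against 24 and 23 at week 4, or 9.08 and 5.17 CPM against 2.05 and 2.00 CPM. It rose by 1.87 ± 0.33 (edgeR adjusted p = 0.00623), a call that was lost after thinning and without 7248 (highest adjusted p 0.0640 in edgeR). At week 2 NFKB2 stood at 3.19 and 4.73 CPM against 1.52 and 2.24 CPM, a ratio of 2.22 (1.60 to 3.11), again without overlap between the eyes of both animals.

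NFKBIA encodes IkB alpha, the inhibitor whose resynthesis ends a canonical pulse. At week 4 it was at 21.7 and 12.9 CPM against 8.81 and 8.61 CPM in Müller glia and rose by 1.03 ± 0.24 (edgeR adjusted p = 0.0193), a call that was lost after thinning and without 7248. At week 2 it was at 18.7 and 36.3 CPM against 7.82 and 8.46 CPM, a ratio of 3.60 (3.12 to 4.17) over eyes of 1 animal that differed from each other as well. NFKBIE encodes IkB epsilon, an inhibitor with slower kinetics. It was at 3.53 and 4.65 CPM against 1.54 and 1.57 CPM at week 4, from 35, 18, 18 and 18 UMIs, and rose by 1.34 ± 0.35 (edgeR adjusted p = 0.0288). This call was lost in DESeq2, with the stricter gate, after thinning and without 7248, 7249 or 7250, with fold changes from 0.55 to 1.61 over the alternatives and a highest adjusted p of 0.586. At week 2 the ratio of NFKBIE was 3.58 (2.22 to 5.97), with 1.81 and 3.33 CPM against 0.667 and 0.868 CPM.

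BCL3 encodes an atypical IkB protein that works in the nucleus with p50 and p52 homodimers. It was found in 77 and 21 UMIs of Müller glia in the AAV-injected retinas of week 4 and in 7 and 6 UMIs in the vehicle-injected retinas, which is 7.77 and 5.43 CPM (6.60 ± 1.65) against 0.599 and 0.522 CPM (0.560 ± 0.0546). The rise was 3.57 ± 0.38 on the log2 scale (edgeR adjusted p = 0.000644). At week 2 no difference was detectable at this depth, with 3 and 4 UMIs in the AAV-injected animal and 8 and 1 in the vehicle-injected animal, a ratio of 0.821 (0.26 to 2.48). The fitted effect at week 4 was above that at week 2 by 3.89 ± 0.88 (log2, SE; edgeR's test of the interaction of treatment and week over 6 animals, adjusted p = 0.045), beside 1.49% of all genes with a larger effect at week 4. Each arm of week 2 was 1 animal, so that the test has no spread between animals of week 2 and assumes that they vary like those of week 4, and DESeq2 gave no adjusted p for this pair. BCL3 in Müller glia was the 1 pair of member and class that passed this test.

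TNFAIP3 encodes A20, a ubiquitin-editing enzyme that shuts down signaling from TNF and Toll-like receptors. In Müller glia it had the largest fold change of the 10 members. Its counts were 102 and 21 UMIs against 2 and 3 at week 4, or 10.3 and 5.43 CPM (7.86 ± 3.44) against 0.171 and 0.261 CPM (0.216 ± 0.0634). It rose by 5.17 ± 0.51 (edgeR adjusted p = 0.000452). At week 2 it was at 1.47 and 3.79 CPM against 0.0606 and 0.506 CPM, a ratio of 10.8 (5.24 to 25.9). BIRC3, which encodes the ubiquitin ligase cIAP2, is a component of TNF receptor complexes and holds NIK low in resting cells. It was at 108 and 60.8 CPM (84.3 ± 33.2) against 15.1 and 14.7 CPM (14.9 ± 0.319) at week 4 and rose by 2.51 ± 0.25 (edgeR adjusted p = 0.000448). At week 2 BIRC3 was at 27.9 and 33.6 CPM against 15.9 and 14.3 CPM, a ratio of 2.06 (1.84 to 2.31). The effect of BIRC3 was larger at week 4 by 1.51, which missed the threshold in edgeR (adjusted p = 0.0698) and passed in DESeq2 (adjusted p = 0.0207).

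TNFAIP2 is an inducible target of TNF, and SOD2 encodes the mitochondrial superoxide dismutase, an antioxidant target. TNFAIP2 was at 4.64 and 1.81 CPM against 0.257 and 0.956 CPM at week 4, from 46, 7, 3 and 11 UMIs, and rose by 2.52 ± 0.63 (edgeR adjusted p = 0.0242). The call rested on animal 7248: without it the fold change was 1.59 (edgeR adjusted p = 0.298), and without vehicle-injected animal 7251 it was 3.73. SOD2 was at 5.05 and 4.14 CPM against 2.14 and 2.43 CPM and rose by 1.03 ± 0.31 (edgeR adjusted p = 0.0444). The SOD2 call was lost in DESeq2, with the stricter gate, with all barcodes kept and without any 1 of the 4 retinas, with fold changes from 0.44 to 1.27 and a highest adjusted p of 0.524. At week 2 neither gene stood apart, with a ratio of 0.924 (0.417 to 2.02) for TNFAIP2 and of 0.895 (0.653 to 1.22) for SOD2.

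At week 2, where each arm was 1 animal, Müller values are a description. After scaling between retinas, 5 of the 10 were past 2-fold at week 2 (NFKB2, RELB, NFKBIA, NFKBIE and TNFAIP3), beside 5.99% of all genes. BIRC3 lay just under with 0.99 on the log2 scale, and NFKB2 just over with 1.08. For BCL3, TNFAIP2 and SOD2 the interval of the week 2 ratio held 1. Of these 3, the difference between weeks passed the test for BCL3, with the limit on its spread given above, and it did not for TNFAIP2 (2.67, edgeR adjusted p = 0.221) or SOD2 (1.23, edgeR adjusted p = 0.185). Leaving out 1 retina at week 4 left 4 calls without animal 7248, 7 without 7249, 7 without 7250 and 8 without 7251, and RELB, BCL3, TNFAIP3 and BIRC3 were called in all 4 cases.

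**Figure D2:**
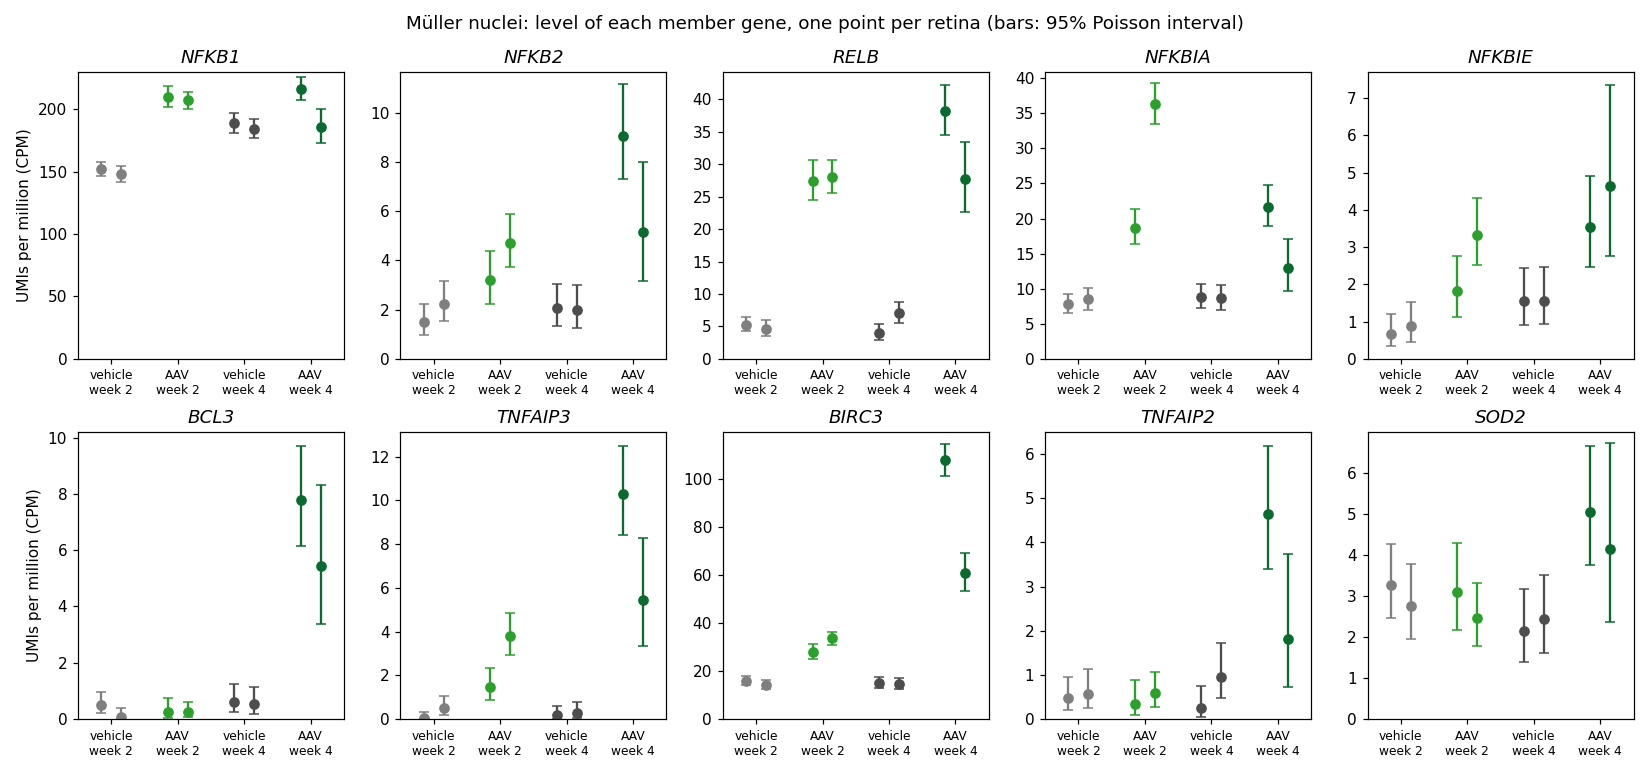
CPM of the 10 members in Müller glia, 1 panel per gene with an axis from 0 and 1 point per retina by group, with 95% Poisson intervals as bars. At week 4 TNFAIP3 runs from 5.43 to 10.3 CPM in AAV-injected and from 0.171 to 0.261 CPM in vehicle-injected retinas.

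**Figure D3:**
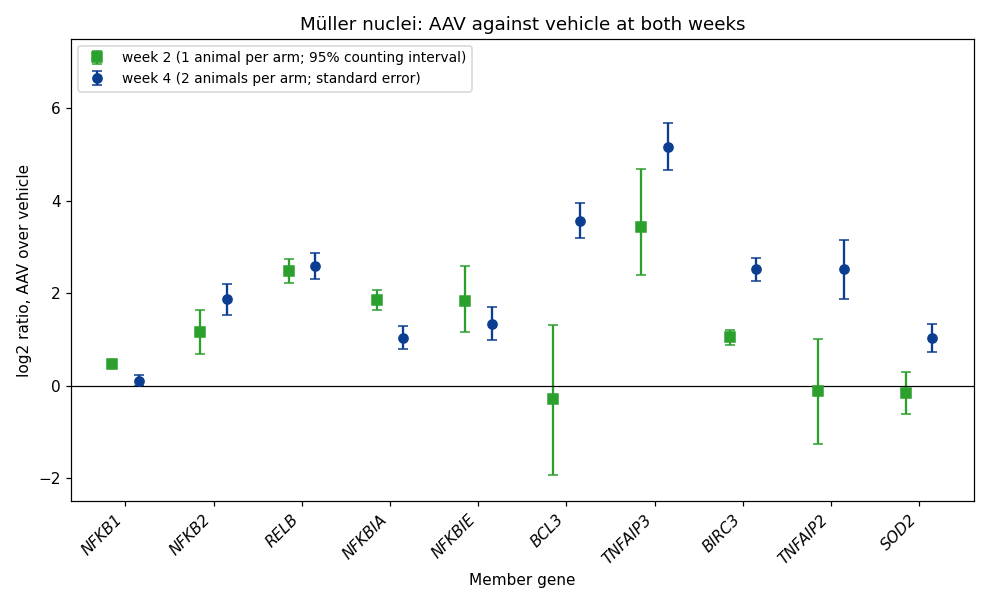
Log2 ratio of AAV-injected over vehicle-injected retinas in Müller glia for each member at week 2 (squares, ratio of CPM in 1 animal per arm, bars are 95% counting intervals) and at week 4 (circles, edgeR with 2 animals per arm, bars are SE). The interval of BCL3 spans 0 at week 2 and its value is 3.57 at week 4, while RELB lies well above 0 at both times.

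The share of Müller nuclei with a UMI of BIRC3 or TNFAIP3 was larger in both AAV-injected retinas, also after thinning, while those of NFKBIE and SOD2 lay closer together once thinned. BIRC3 was seen in 23.6% (exact binomial 95% interval 21.7 to 25.7) and 17.5% (14.8 to 20.6) of Müller nuclei in the AAV-injected retinas of week 4 and in 3.49% (2.98 to 4.06) and 3.04% (2.58 to 3.55) in the vehicle-injected retinas. TNFAIP3 was seen in 3.20% ± 0.658 against 0.0512% ± 0.0119 (mean ± SD, n = 2), and the exact permutation test of each gave p = 0.333, the smallest that 2 against 2 animals allow. With every nucleus thinned to 1000 UMIs, which removes the gap in depth, the shares were 5.52% against 1.52% for BIRC3 and 1.06% against 0.0221% for TNFAIP3, close to the level of 1 UMI for the vehicle-injected retinas. NFKBIE was seen in 1.72% and 2.44% against 0.385% and 0.358%, and after thinning in 0.333% and 0.432% against 0.226% and 0.260%. SOD2 was seen in 2.27% and 1.72% against 0.514% and 0.556%, and after thinning in 0.278% and 1.01% against 0.271% and 0.238%. In rods of the same retinas, where TNFAIP3 passed the test as well, it was seen in 0.428% and 0.320% against 0.107% and 0.0800%, at a median of 1942 and 2188 against 1516 and 1559 UMIs per nucleus. No class was known to lack the gene, and the part of free RNA in these shares was not tested.

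In astrocytes, the glia of the nerve fiber layer, 5 of 8 tested members rose at week 4, beside 8.17% of all genes. Their median fold change was 1.89 on the log2 scale, and that of all genes -0.0054. There were 248 and 136 astrocyte nuclei against 213 and 273, with a median of 10326 and 10559 against 4749 and 4884 UMIs per nucleus. Myeloid markers in these sums were at 64.8 and 24.1 CPM against 29.9 and 26.6 CPM, T or NK markers at 42.1 and 29.5 against 24.1 and 16.5 CPM, and rod markers at 937 and 435 against 1312 and 1245 CPM. Their part in the results was not tested.

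Among classes with 50 nuclei or more in both retinas, TNFAIP2 had its highest mean in astrocytes in both groups of week 4. In vehicle these values overlapped those of ganglion cells, and myeloid nuclei, 64 and 68 with 0 TNFAIP2 UMIs, were too few to be placed. In astrocytes TNFAIP2 was at 40.9 and 38.9 CPM against 17.3 and 4.32 CPM. It rose by 2.03 ± 0.45 (edgeR adjusted p = 0.0174), with 3.25 without 7250, 1.28 without 7251 and the call lost without 7248 (adjusted p = 0.0987). At week 2 it was not higher in the AAV-injected animal, with a ratio of 0.756 (0.442 to 1.25). TNFAIP3 was counted in 79 and 22 UMIs against 3 and 0, or 30.5 and 14.8 CPM against 2.89 and 0 CPM, a ratio of 20 (6.66 to 98.7). It passed with an adjusted p of 0.00799 in edgeR and was lost without 7248 (adjusted p = 0.103), with a fold change of 3.07 without 7251. At week 2 the ratio of TNFAIP3 in astrocytes was 1.07 (0.385 to 2.79), so that the A20 transcript was not detectably different there at this depth.

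BIRC3 was at 52.5 and 54.3 CPM against 15.4 and 16.5 CPM in astrocytes and rose by 1.79 ± 0.25 (edgeR adjusted p = 0.00222), a call that was lost after thinning (1.21, edgeR adjusted p = 0.127). At week 2 the BIRC3 ratio was 1.80 (1.24 to 2.62). RELB was at 20.8 and 17.4 CPM against 1.93 and 7.20 CPM and rose by 2.03 ± 0.49 (edgeR adjusted p = 0.0233), a call that was lost in DESeq2 and without 7248 or 7250. SOD2 was at 8.49 and 10.1 CPM against 2.89 and 2.16 CPM, from 3 UMIs in each vehicle-injected retina, and rose by 1.91 ± 0.52 (edgeR adjusted p = 0.038). The SOD2 call in astrocytes was lost in DESeq2, with all barcodes kept and without any 1 of the 4 retinas, with fold changes from 1.63 to 2.11 and a highest adjusted p of 0.402. NFKB2, with 25 and 12 UMIs against 4 and 2, missed the threshold at 1.88 ± 0.57 (edgeR adjusted p = 0.0546). BCL3 and NFKBIE had too few counts for the test. BCL3 had 17 and 14 UMIs against 1 and 0, a ratio of 18.4 (3.07 to 751), and NFKBIE had 9 and 4 UMIs against 1 and 1, a ratio of 3.87 (0.875 to 35.3).

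NFKBIA did not pass in astrocytes. It was at 11.6 and 12.1 CPM in the AAV-injected retinas of week 4 and at 18.3 and 25.9 CPM in the vehicle-injected retinas, without overlap, and the fold change of -0.86 ± 0.33 missed the threshold (edgeR adjusted p = 0.116). At week 2 NFKBIA was higher in the AAV-injected animal, with a ratio of 1.69 (1.16 to 2.44). NFKB1 was at 115 and 134 CPM against 110 and 116 CPM, a fold change of 0.19 (edgeR adjusted p = 0.493). Without animal 7248, 1 astrocyte member was called, and without any of the other 3 retinas 4 were, 1 of the 4 without 7250 being a member that had not passed with all retinas.

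The myeloid class gathers nuclei with microglia or macrophage markers, and its makeup differed between the groups. It held 1435 and 892 nuclei in the AAV-injected retinas of week 4 and 64 and 68 in the vehicle-injected retinas. P2RY12, the homeostatic microglia receptor, was at 473 and 693 CPM against 2031 and 1755 CPM, and CX3CR1 at 49.2 and 36.1 against 206 and 252 CPM. CD163, a scavenger receptor of macrophages, was at 2147 and 1364 CPM against 0 and 7.87 CPM, and MRC1 at 348 and 302 against 0 and 0 CPM, while CSF1R was at 413 and 390 against 423 and 386 CPM. BANK1, written as a B cell marker, was at 1758 and 1971 against 41.2 and 55.1 CPM and made up 95.9% and 95.8% of the B or plasma marker UMIs in the class, with CD79A at 2 and 2 UMIs. A change of the nuclei that make up the class and a change within nuclei cannot be told apart in the values that follow.

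In the myeloid class 5 of 10 members rose at week 4, beside 5.01% of all genes. The fitted median of the members was 3.05 on the log2 scale, and 1.33 with the 4 members at 0 in vehicle set to their lower bounds, beside 0.18 for all genes, fitted without such bounds. The median of all genes ran from -0.47 in DESeq2 to 1.45 without the filter on low counts, so that the members' median cannot be read against it. TNFAIP3 was at 135 and 123 CPM against 10.3 and 7.87 CPM, from 565 and 377 UMIs against 1 and 1, a ratio of 14.6 (4.02 to 121), and it passed in edgeR with an adjusted p of 0.000822. At week 2 it had 14 and 14 UMIs against 1 and 4, a ratio of 3.34 (1.27 to 11.06). Among the classes with 50 nuclei or more in both retinas, the A20 gene thus had its highest level in these nuclei in both groups of week 4. In vehicle this rested on 1 UMI per retina, too few for a firm order.

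RELB was counted 510 and 315 times in the AAV-injected retinas and not at all in the vehicle-injected retinas, which is 122 and 103 CPM, at least 8.51-fold higher against 3 counts over both vehicle-injected retinas (edgeR adjusted p = 0.00111). This bound covers counting error only and no spread between vehicle-injected animals. The 2 vehicle-injected retinas of week 2 held 4 and 3 RELB UMIs, or 24.8 and 19.0 CPM, so that the transcript was counted in myeloid nuclei of vehicle-injected eyes. The AAV-injected animal of week 2 was at 16.6 and 47.1 CPM, a ratio of 1.36 (0.530 to 3.91). At week 4 NFKBIE was at 132 and 90 UMIs against 0 and 0, with a lower bound of 2.29-fold from counting error alone (edgeR adjusted p = 0.0454). The NFKBIE call was lost without a scaling factor, in DESeq2, with the stricter gate, with nuclei of at least 1000 UMIs, after thinning and without 7250 or 7251 (highest adjusted p 0.162 in edgeR), and it had no value without 7248 or 7249. BIRC3 was at 105 and 137 CPM against 30.9 and 31.5 CPM, from 3 and 4 UMIs in vehicle, and rose by 2.10 ± 0.44 (edgeR adjusted p = 0.013), a call that was lost after thinning and without 7249, 7250 or 7251. NFKB1 was at 352 and 323 CPM against 247 and 142 CPM and rose by 0.99 ± 0.26 (edgeR adjusted p = 0.0422), and this was the 1 class in which NFKB1 passed. That call was lost without a scaling factor, after thinning and without 7248, 7249 or 7251, with fold changes from 0.55 to 1.46 over the alternatives and a highest adjusted p of 0.320.

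NFKBIA was at 41.7 and 50.8 CPM against 82.5 and 39.4 CPM in myeloid nuclei, from 8 and 5 UMIs in vehicle, and the groups overlapped (log2 -0.19, edgeR adjusted p = 0.861). NFKB2 was at 96 and 42 UMIs against 0 and 0, and TNFAIP2 at 63 and 41 against 0 and 0, and neither passed (edgeR adjusted p = 0.164 and 0.165). Their lower bounds of 1.42-fold and 1.07-fold cover counting error only. BCL3 had 57 and 30 UMIs against 1 and 0, a ratio of 2.69 (0.471 to 108), and SOD2 92 and 69 against 2 and 0, a ratio of 2.49 (0.679 to 20.7). With 64 and 68 vehicle nuclei, these intervals were too wide to tell a difference from none. The myeloid calls were 3 without 7248, 2 without 7249, 3 without 7250 and 2 without 7251, and RELB and TNFAIP3 were called in all 4 cases.

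To hold the makeup of the class closer, the members were counted in myeloid nuclei with a P2RY12 UMI and none of CD163, MRC1 or BANK1. These were 23 (1.60%) and 9 (1.01%) of the myeloid nuclei in the AAV-injected retinas and 57 (89.1%) and 60 (88.2%) in the vehicle-injected retinas. RELB had 8 UMIs against 0 in them, at least 7.62-fold higher, and TNFAIP3 had 5 against 2, a ratio of 7.15 (1.17 to 75.0). NFKB1 had 27 UMIs against 41, a ratio of 1.88 (1.11 to 3.13), while BIRC3 with 7 against 6 (3.33, 0.960 to 12.01) and NFKBIA with 1 against 13 (0.220, 0.00517 to 1.46) had intervals that held 1. Of the others, NFKBIE had 1 UMI against 0, NFKB2 2 against 0, BCL3 1 against 1, SOD2 0 against 2 and TNFAIP2 0 against 0, too few for a ratio to be read. These counts are sums over 2 retinas per arm, and the intervals cover counting error only. A transcript without a UMI in a nucleus may have been missed. Makeup and change within nuclei thus cannot be told apart in this subset either.

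Rods, the most numerous photoreceptors, had 4 members that rose at week 4 of 10 tested, beside 6.17% of all genes (1334 of 21605, with 1853 that fell), and a median of 0.64 on the log2 scale beside 0.03 for all genes. BCL3 led them, with 196 and 348 UMIs against 3 and 10, or 3.86 and 5.39 CPM against 0.103 and 0.531 CPM. It rose by 4.14 ± 0.60 (edgeR adjusted p = 0.0157), and the fold change was 3.25 without 7250 and 5.56 without 7251, whose levels differ. At week 2 the counts were 4 and 5 against 4 and 5, a ratio of 1.60 (0.562 to 4.55), and the difference between weeks was 3.56 (edgeR adjusted p = 0.174). As in Müller glia, BCL3 in rods rose at week 4 and was not detectably different at week 2.

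Some lists of immune markers were also higher in the rod sums of the AAV-injected retinas at week 4. B or plasma markers were at 70.6 and 84.1 CPM against 23.97 and 28.1 CPM, with 0 and 0 against 3 and 2 of 11 at 0. The vehicle-injected retinas held 1 and 0 B or plasma nuclei, so that this list need not mark B or plasma RNA in rods. T or NK markers were at 55.8 and 33.9 against 27.2 and 21.8 CPM, and myeloid markers at 37.8 and 27.6 against 24.2 and 22.3 CPM. Dendritic cell markers overlapped, at 69.4 and 44.9 against 58.8 and 86.0 CPM. RPE markers were higher as well, at 267 and 228 against 191 and 172 CPM, while the lists of neurons, glia and vessels were lower. The part of these markers, and of free RNA, in the rod results was not tested. BCL3 was seen in 0.838% (0.724 to 0.966) and 1.31% (1.18 to 1.46) of these rods, against 0.427% (0.268 to 0.645) and 0.236% (0.118 to 0.421) of cones at a median of 3080.5 and 4073.5 UMIs per nucleus, above the rods' 1942 and 2188.

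TNFAIP3 was at 2.09 and 1.47 CPM against 0.584 and 0.478 CPM in rods and rose by 1.83 ± 0.36 (edgeR adjusted p = 0.0265). NFKB2 was at 1.20 and 1.08 CPM against 0.412 and 0.265 CPM and rose by 1.81 ± 0.39 (edgeR adjusted p = 0.0329). BIRC3 was at 22.1 and 20.4 CPM against 14.4 and 12.6 CPM and rose by 0.76 ± 0.15 (edgeR adjusted p = 0.0251), a smaller change than in glia. RELB was higher in rods of the AAV-injected animal at week 2 (2.31 and 2.37 CPM against 0.972 and 0.654 CPM, a ratio of 2.85, 2.05 to 3.98), while the groups overlapped at week 4 (log2 0.51, edgeR adjusted p = 0.476). The rod calls were 1 without 7248, 2 without 7249, 1 without 7250 and 1 without 7251, and BCL3 was called in each case. Over the whole transcriptome the genes called higher in rods were fewer in each case too, and that drop was smallest without 7248. After thinning the calls of TNFAIP3 and NFKB2 in rods were lost as well.

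In bipolar nuclei, the interneurons between photoreceptors and ganglion cells, 2 of 9 tested members rose, beside 2.35% of all genes, and the median was 0.49 on the log2 scale. BCL3 was at 1.27 and 1.15 CPM against 0.136 and 0.285 CPM, from 30, 30, 3 and 6 UMIs, and rose by 2.52 ± 0.46 (edgeR adjusted p = 0.0298). TNFAIP3 was at 1.86 and 1.83 CPM against 0.452 and 0.475 CPM and rose by 2.00 ± 0.33 (edgeR adjusted p = 0.0193). Both calls were lost in DESeq2, neither gene had the counts for a test after thinning, and 1, 1, 0 and 0 calls were left without 7248, 7249, 7250 and 7251. Myeloid markers were higher here too, at 46.1 and 44.7 against 31.9 and 23.5 CPM. T or NK markers were at 47.3 and 35.2 against 29.5 and 20.8 CPM, and B or plasma markers at 144 and 176 against 102 and 84.9 CPM. Dendritic cell markers overlapped, at 182 and 169 against 163 and 178 CPM. With 1 and 0 B or plasma nuclei in the vehicle-injected retinas, the B or plasma list need not mark B or plasma RNA in bipolar nuclei. The part of these markers was not tested.

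**Figure D4:**
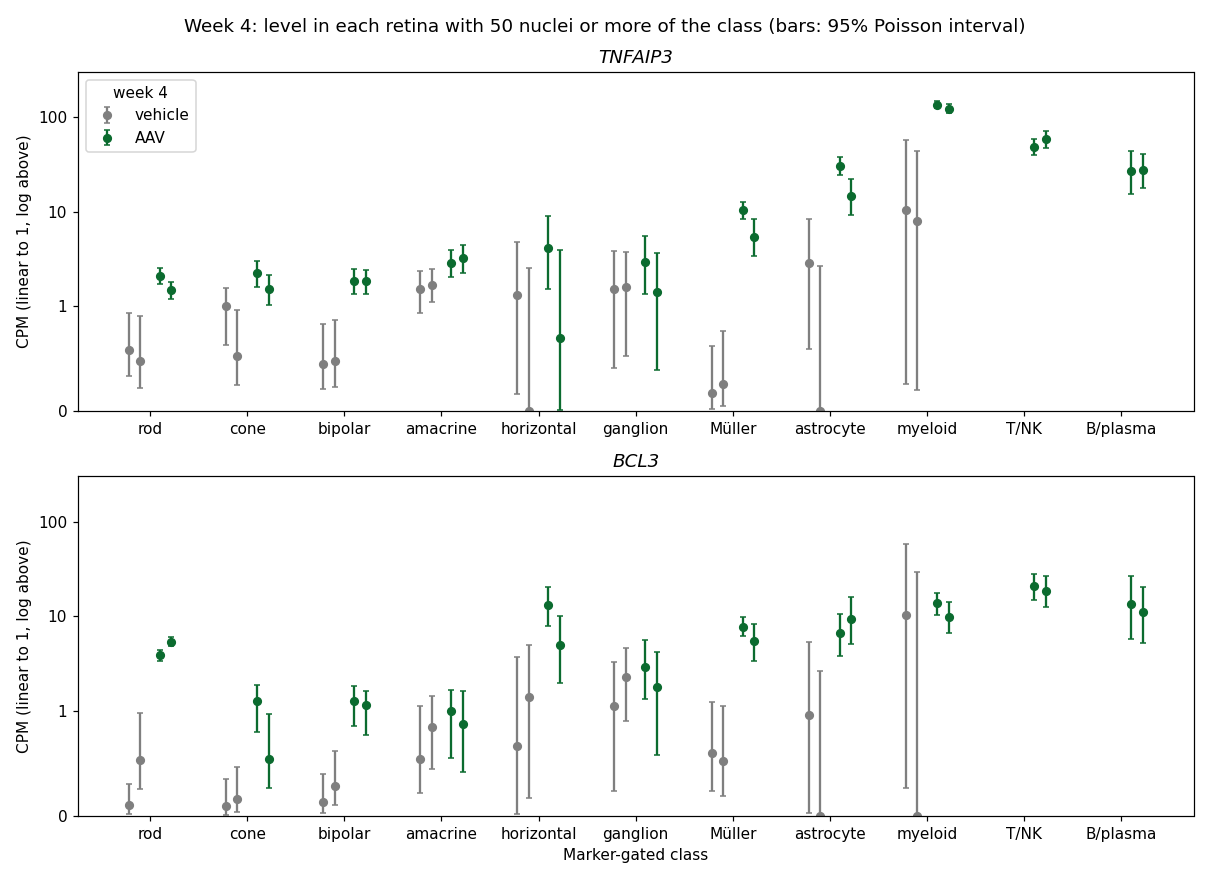
CPM of TNFAIP3 and of BCL3 by class in the retinas of week 4, on an axis that is linear up to 1 CPM and logarithmic above, with 1 point per retina that had 50 nuclei or more of the class and 95% Poisson intervals as bars. In rods, BCL3 is at 3.86 and 5.39 CPM in AAV-injected retinas and at 0.103 and 0.531 CPM in vehicle-injected retinas, and of the classes plotted TNFAIP3 is highest in myeloid nuclei.

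In the other 4 neuronal classes no member passed. The background of genes that rose was 1.47% in cones, 1.68% in amacrine, 3.0% in horizontal and 2.2% in ganglion nuclei. BCL3 in cones came nearest, with 23 and 11 UMIs against 2 and 3 and a fold change of 2.81 ± 0.66 (edgeR adjusted p = 0.0859). BIRC3 in cones was at 0.78 (edgeR adjusted p = 0.0901), and TNFAIP3 in amacrine nuclei had 40 and 37 UMIs against 20 and 26 (0.90, edgeR adjusted p = 0.169). In horizontal nuclei NFKB1 was at 44.5 and 47.1 CPM against 18.6 and 27.0 CPM (0.94 ± 0.26, edgeR adjusted p = 0.0877). Counts of BCL3 there were 19 and 7 against 1 and 2, a ratio of 8.86 (2.71 to 45.7), and of RELB 8 and 9 against 0 and 1, a ratio of 17.4 (2.72 to 726), too few for the fit.

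RELB did not pass in ganglion cells, which carry the retinal output. Of the classes with 50 nuclei or more and RELB counts in both vehicle-injected retinas of week 4, they had the highest level, at 10.9 and 13.2 CPM. Myeloid nuclei of these retinas, 64 and 68 with 0 RELB UMIs, were too few to be placed in this order. In vehicle-injected retinas of week 2 the myeloid mean was 21.9 CPM, against 9.48 CPM in ganglion cells. In the AAV-injected retinas of week 4 ganglion cells were at 5.51 and 5.37 CPM. The fold change of -1.09 ± 0.34 missed the threshold (edgeR adjusted p = 0.112), although the groups did not overlap. At week 2 RELB was at 5.56 and 6.70 CPM against 10.6 and 8.36 CPM, a ratio of 0.65 (0.438 to 0.956). SOD2, which had its highest mean of these classes in vehicle-injected ganglion cells at week 4 beside overlapping myeloid values, was at 11.98 and 10.38 against 10.91 and 10.95 CPM (0.09, edgeR adjusted p = 0.917). TNFAIP2 had 22 and 13 UMIs against 11 and 28 in ganglion nuclei (-0.11, edgeR adjusted p = 0.934). At week 2 SOD2 in ganglion cells was lower in the AAV-injected animal, at 8.95 and 7.01 against 12.95 and 11.3 CPM, a ratio of 0.673 (0.479 to 0.941).

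Levels were ordered over the classes with 50 nuclei or more in both retinas of a group, which leaves out endothelial, pericyte and RPE nuclei at week 4. Within that limit, immune classes led in AAV-injected retinas of week 4 for 9 of the 10 members, and astrocytes for TNFAIP2. NFKB1, NFKB2, BCL3 and BIRC3 were highest in T or NK nuclei, at 413 ± 45.4, 21.5 ± 2.58, 19.5 ± 1.60 and 160 ± 25.3 CPM (mean ± SD, n = 2). RELB, NFKBIA, NFKBIE, TNFAIP3 and SOD2 were highest in myeloid nuclei. For NFKB2 the T or NK, myeloid and B or plasma values overlapped in turn, and for NFKBIE the myeloid values overlapped those of B or plasma nuclei (28.6 ± 14.2 CPM). RELB in T or NK nuclei (75.0 ± 20.9 CPM) and in B or plasma nuclei (72.9 ± 22.7 CPM) could not be ordered either. Müller glia stood next after the immune classes for NFKB1, RELB, NFKBIA, NFKBIE and BIRC3, and astrocytes for NFKB2 and TNFAIP3. The Müller values of NFKBIA and BIRC3 overlapped those of B or plasma nuclei, as did the astrocyte values of TNFAIP3, and for NFKB2 the astrocyte and Müller values overlapped. The few endothelial nuclei of the AAV-injected retinas, 12 and 6, were above these leading means in both retinas for NFKB2 (61.9 and 50.8 CPM, from 3 and 2 UMIs), NFKBIA (103 and 127 CPM, from 5 and 5 UMIs) and BIRC3 (372 and 1118 CPM, from 18 and 44 UMIs). Their RELB was at 103 and 152 CPM, from 5 and 6 UMIs, their SOD2 at 20.6 and 25.4 CPM, from 1 UMI each, and their BCL3 at 0 and 50.8 CPM. RPE nuclei, 35 and 5, had BCL3 at 11.098 and 36.3 CPM, from 2 and 1 UMIs.

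Among vehicle-injected retinas of week 4, which held too few lymphocytes for a level, NFKBIA, BIRC3 and TNFAIP3 were highest in myeloid nuclei, at means of 60.9, 31.2 and 9.09 CPM. These means came from 13, 7 and 2 UMIs over both retinas, too few for a firm order. NFKB1 was at 195 CPM in myeloid nuclei and 187 CPM in Müller glia, which overlapped. NFKB2 and TNFAIP2 were highest in astrocytes, at 2.65 and 10.8 CPM, with overlap with the next class in both cases. Of the ordered classes with UMIs of the gene in both retinas, NFKBIE was highest in bipolar nuclei, at 1.74 CPM. Myeloid nuclei of these retinas, 64 and 68, held 0 UMIs of NFKBIE, NFKB2 and TNFAIP2. They were too few to be placed for these genes. In vehicle-injected retinas of week 2 the myeloid mean of NFKBIE was 9.31 CPM, from 3 UMIs, against 0.917 CPM in bipolar nuclei. Of the classes left out of this order, RPE nuclei, 40 and 79, had NFKB2 at 9.11 and 5.57 CPM from 2 UMIs each, above both astrocyte values of 3.85 and 1.44 CPM. Pericyte nuclei, 35 and 133, had TNFAIP2 at 13.4 and 14.98 CPM and RELB at the same values, from 1 and 4 UMIs of each gene. Endothelial nuclei, 4 and 15, had NFKBIA at 190 and 96.1 CPM from 2 and 3 UMIs.

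Of 92 other genes of the pathway, written by role, 89 were listed by symbol. In Müller glia 38 of 73 tested rose and 0 fell, again beside 12.1% of all genes that rose, and their median fold change was 0.77. By role, 0 of 4 ligands, 9 of 18 receptors and adaptors, 6 of 11 kinases, 1 of 6 other Rel and IkB genes, 3 of 9 other feedback inhibitors and 19 of 25 other targets rose. In rods 21 of 75 rose, beside 6.17% of all genes, in astrocytes 18 of 57, beside 8.17%, and in myeloid nuclei 9 of 72, beside 5.01%. In bipolar nuclei 13 of 69 rose, beside 2.35%, in cones 10 of 67, beside 1.47%, and in amacrine nuclei 8 of 69, beside 1.68%. In ganglion nuclei 5 of 49 rose, beside 2.2%, and in horizontal nuclei 4 of 33, beside 3.0%.

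Among the receptors, TNFRSF1A, the main TNF receptor, was at 16.3 and 12.9 CPM against 4.88 and 5.65 CPM in Müller glia and rose by 1.49 ± 0.22 (edgeR adjusted p = 0.0028). Its adaptor gene TRAF2 was at 19.4 and 16.3 against 7.79 and 7.74 CPM and rose by 1.21 ± 0.18 (edgeR adjusted p = 0.00325). MAP3K14 encodes NIK, the kinase of the non-canonical arm, and was at 62.0 and 53.0 against 26.2 and 31.0 CPM, a rise of 1.01 ± 0.15 (edgeR adjusted p = 0.00308). TAB2, an adaptor of the kinase TAK1, rose by 0.78 ± 0.12 (edgeR adjusted p = 0.00281). Of the inhibitors, NFKBIB, a further IkB gene, rose by 0.77 ± 0.19 (edgeR adjusted p = 0.0249), TAX1BP1, a partner of A20, by 0.66 ± 0.11 (edgeR adjusted p = 0.00476), and OTULIN, a deubiquitinase of linear chains, by 0.87 ± 0.17 (edgeR adjusted p = 0.00811). These genes and the targets named next were picked by smallest p within each role, so that their fold changes do not compare the roles.

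CSF1, the macrophage growth factor, was at 30.3 and 30.0 CPM in Müller glia of the AAV-injected retinas of week 4 and at 0.599 and 0.522 CPM in the vehicle-injected retinas, and rose by 5.71 ± 0.24 (edgeR adjusted p = 7.93e-06). It was already at 14.4 and 38.6 against 0.303 and 0.434 CPM at week 2. IRF1, a transcription factor that interferon also induces, was at 36.7 and 29.5 against 1.54 and 2.43 CPM and rose by 4.06 ± 0.25 (edgeR adjusted p = 4.88e-05), after 19.9 and 50.4 against 2.00 and 0.868 CPM at week 2. Of the ligand genes, TNFSF13B was at 2.62 and 2.33 against 0.342 and 1.22 CPM (1.67 ± 0.56, edgeR adjusted p = 0.0652), and LTB did not pass either (0.69 ± 0.37, edgeR adjusted p = 0.219). NFKBID, the other Rel or IkB gene named, missed the threshold at 0.84 ± 0.27 (edgeR adjusted p = 0.0546).

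Over 77 sums of a class in a retina, the genes whose level followed the mean of the 10 members most closely were BAZ1A, a chromatin remodeling subunit (Pearson r of log2 values 0.918), ENSSSCG00000009633 (0.896), ELK3, an ETS transcription factor (0.893), DNASE1L1 (0.892) and ENSSSCG00000049524 (0.886), of 12954 genes compared. The sums share retinas, libraries and depth, and the values are a description. Against the mean of the other 9, TNFAIP3 was at 0.889, NFKB2 at 0.863, RELB at 0.861, BIRC3 at 0.822, NFKBIE at 0.806, NFKB1 at 0.795, BCL3 at 0.777 and NFKBIA at 0.621. TNFAIP2 (0.381) and SOD2 (0.100) followed the others least.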

How the data were processed

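Nuclei of 8 retinas from 6 pigs were profiled by 3' single-nucleus RNA sequencing. Per the labels and the study's methods, the authors ran Cell Ranger 8.0.0 against Sscrofa11.1 (Ensembl 113) plus EGFP and deposited raw UMI counts per gene and nucleus as filtered matrices, 4 lanes per retina, without normalization or cell types. The smallest barcode held 500 UMIs, and any 2 lanes shared 18 to 65 barcodes.

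Barcodes with a posterior above 0.75 in a model of mitochondrial share against the number of genes seen were removed. No doublet caller was run. A nucleus entered a class when at least 2 of its markers were seen and its Poisson log likelihood led that of the next class by at least 3 (natural log). The gate, and the leaving out of a dendritic class with few nuclei, were settled after marker levels had been seen. Near the cut lay 10.1% of Müller, 10.9% of amacrine, 4.00% of myeloid and 2.23% of rod nuclei. Classes are ranges of marker counts and can hold mixed nuclei.

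UMIs were summed per class and retina and tested with edgeR 4.0.16 in R 4.3.3 (TMM scaling, edgeR's filter on low counts, Benjamini-Hochberg over all genes of a class, threshold 0.05). A fold against a group at 0 is a lower bound against 3 counts over that group and covers counting error only. Fits were tested on simulated data. Alternatives were other scaling, DESeq2 1.42.0, no filter, stricter and looser gates, all barcodes, deeper nuclei, nuclei without EGFP, thinning to 1000 UMIs and leaving out each retina. The myeloid subset with P2RY12 was added after the data were seen. The promoter of 1 member is not reported here. A test over single nuclei was not used, since nuclei of a retina are not replicates.

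The 10 members and the lists of markers and pathway genes were chosen with earlier results of these data known. A member was described in full in a class where it passed the test, and in part elsewhere. Pericyte and RPE nuclei of week 2 were not described, although they had the highest mean for some members. RELB in pericytes was at a mean of 48.3 CPM in the AAV-injected and 20.3 CPM in the vehicle-injected animal. SOD2 in RPE nuclei was at 11.3 and 17.2 CPM. Of each role of the pathway list the 2 genes with the smallest p in Müller glia were named, and the 5 most similar genes were ranked among those with a mean of 5 CPM or more in sums of 100 nuclei or more, on log2(CPM + 1).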

Additional observations from a re-analysis of the deposited data

Results flagged for a closer look

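BCL3 in Müller glia was the 1 pair of member and class that passed edgeR's test of the interaction of treatment and week, with a difference of 3.89 on the log2 scale. It was higher in both AAV-injected retinas at week 4, while the eyes of the animals of week 2 overlapped. The spread in this test comes from the 4 animals of week 4 alone, since each arm of week 2 was 1 animal, and week and batch cannot be told apart. With left eyes alone the difference was 4.50 (edgeR adjusted p = 0.0381), and with RLE scaling 3.91 (edgeR adjusted p = 0.0464). DESeq2 gave no adjusted p for it and instead called BIRC3 in Müller glia (1.52, adjusted p = 0.0207) and RELB in myeloid nuclei (adjusted p = 0.0344). The fitted difference of BCL3 was larger in astrocytes (5.96 ± 1.65, edgeR adjusted p = 0.107) and in horizontal nuclei (4.03 ± 2.17, edgeR adjusted p = 0.714), without passing. In astrocytes of week 2 BCL3 had 2 UMIs in the AAV-injected and 13 in the vehicle-injected animal, a ratio of 0.268 (0.0294 to 1.18).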

How the results depend on the processing

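Of the 25 pairs of member and class that passed at week 4, 0 reversed under 14 alternatives and 7 passed in each that gave a value: RELB, BCL3, TNFAIP3 and BIRC3 in Müller glia, BCL3 in rods, and RELB and TNFAIP3 in myeloid nuclei. Without the thinning and the left-out retinas in view, 17 passed in each. After thinning to 1000 UMIs, 9 of the 25 passed and 7 had too few counts for a test. Of the 25, 10 passed without 7248, 16 without 7249, 14 without 7250 and 15 without 7251, and calls over all pairs, those gained included, numbered 12 to 17. By class, thinning left 5 calls of 9 in Müller glia, 0 of 5 in astrocytes, 2 of 5 in myeloid nuclei, 2 of 4 in rods and 0 of 2 in bipolar nuclei. DESeq2, which gave no adjusted p for 12 pairs of member and class, left 3 in astrocytes and 0 in bipolar nuclei. Myeloid calls were 3 without a scaling factor, the looser gate called 1 member in amacrine and 1 in horizontal nuclei, and the sum over all nuclei had 4 calls of 7 without the filter. With 1 retina left out, calls ran from 4 to 8 in Müller glia, 1 to 4 in astrocytes, 2 to 3 in myeloid nuclei, 1 to 2 in rods, 0 to 1 in bipolar, cone and horizontal nuclei, and 3 to 8 over all nuclei. The lone retina of an arm was then assumed to vary like the others. The test of week 4 against week 2 called 2 pairs in DESeq2. The difference in the share of Müller nuclei with a UMI was 17.3 percentage points for BIRC3 and 3.14 for TNFAIP3, and after thinning 4.00 and 1.04. Why the calls moved was not tested, apart from the fewer counts and samples that thinning and left-out retinas leave. No paired analysis was possible because the replicate numbers follow accession order and pair no animals. Counts under about 10 UMIs per retina, found in vehicle-injected sums of several classes, limit those ratios.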
